A study of Mus musculus with 10 samples.

Results

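Lysosomes and autophagosomes break down material that cells take up or recycle, and transcripts of 53 genes of this machinery were read out of bulk RNA sequencing of mouse neuroretina after an injection of nanoparticles into the vitreous. The genes were chosen by name: lysosomal proteases and glycosidases, membrane proteins, subunits of the vacuolar proton pump and core autophagy proteins. All 53 were found among the 57186 Ensembl gene IDs of the deposited table, and 50 of them had enough counts to be tested. Animals of the treated group received graphitic carbon nitride nanoparticles (CNP, hg-C3N4 in the labels), 1 µL of a 1 mg/mL solution in phosphate-buffered saline (PBS). Controls received PBS alone, so both groups share the injection, and both were female C57BL6/JRj mice whose neuroretinas were taken 14 days later and frozen. Each group held 5 libraries, named here by group and library number: PBS 2, 6, 10, 14 and 18, and CNP 4, 8, 12, 16 and 20. Values by library are listed in that order. The submitters count the CNP group in mice (5) and the PBS group in eyes (5), and no label ties a library to its own animal, so the tests measure the spread between these libraries. No age is given in the labels.

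As background, cathepsins and glycosidases are hydrolases that work in the acid interior of the lysosome. The acid is made by the vacuolar ATPase (V-ATPase), in which a V1 sector on the cytosolic face splits ATP and drives a ring of proteolipids in the membrane-embedded V0 sector, which carries protons across. Autophagy delivers the cell's own material to the same compartment: an initiation complex forms a membrane, proteins of the LC3 and GABARAP families are attached to it, and receptors such as p62 bring cargo. Photoreceptors use this route to turn over proteins and organelles, and the transcription factors TFEB and TFE3 bind a promoter element known as CLEAR in many of these genes.

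The CLEAR element has the core TCACGTGA, which contains the E-box CACGTG, and both read the same on either strand. Promoter windows from RefSeq (build GRCm38.p6), running from 250 bases before to 50 after a gene's start, were matched by symbol to 44 of the 53 members. The members without a window were Atp6v1b2, Atp6v1c1, Atp6v1g1, Atp6v1h, Becn1, Ctsb, Ctsh, Map1lc3a and Npc1. The core was found in 7 of these 44 members (15.9%) and in 1.12% of the 27025 genes with a window. The E-box was found in 14 members (31.8%) and in 8.09% of all genes with a window. The longer form, with a G before and a C after the core, was found in 0 members and in 0.37% of genes. A match is a description of the letters, not evidence of binding. The members with the core were Ctsa, Ctsd, Gla, Mcoln1, Atp6v0d1, Atp6v0e and Atp6v1a. The following stretches hold the core, in capitals, and are printed 5′ to 3′ on the gene's own strand. Control of the genes through these stretches was not tested. They lie at chr2:164833740-164833772 on the plus strand (Ctsa), chr7:142387899-142387946 on the minus strand (Ctsd), chr8:3500453-3500500 on the plus strand (Mcoln1) and chr16:44139364-44139411 on the minus strand (Atp6v1a). The overlapping pair shown for Gla lies at chrX:134601206-134601253 and chrX:134601173-134601220 on the minus strand.
Ctsa: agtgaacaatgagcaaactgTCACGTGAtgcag
Ctsd: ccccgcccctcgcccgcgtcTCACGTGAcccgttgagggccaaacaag
Mcoln1: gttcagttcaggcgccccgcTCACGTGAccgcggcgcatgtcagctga
Atp6v1a: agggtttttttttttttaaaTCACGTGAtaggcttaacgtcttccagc
Gla, farther site: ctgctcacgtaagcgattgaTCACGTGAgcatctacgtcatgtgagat
Gla, nearer site: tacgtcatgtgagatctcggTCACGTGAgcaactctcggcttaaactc

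In these stretches the core began 13 bases before the annotated start in Ctsa, 99 in Ctsd, 46 in Mcoln1, 132 in Atp6v1a, and 228 and 195 in Gla. A second core in Ctsa, and those in Atp6v0d1 and Atp6v0e, began within 4 bases of the start and are not printed. In 43 of the members' 52 windows, the 30 bases after the start were found near an annotated transcript start (GENCODE M21). The Atp6v0d1 window with the core was not among them, so its distance rests on the promoter windows' own start. The 7 members with the core did not share a direction between the groups: 4 had a positive and 3 a negative log2 difference, CNP minus PBS, with a median of 0.021.

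Total counts ran from 3328518 (PBS 18) to 5428697 (PBS 2), so that a count of 0 in 1 library allowed a level of up to 0.503 to 0.971 CPM (counts put on one scale for library size). That limit covers counting error only. All 10 rod markers, among them Sag, were present in every library, with a summed level of 43693 to 76706 CPM. Markers of tissue next to the retina were present too: the summed pigment epithelium markers ran from 479.9 to 2504 CPM and the lens markers from 211 to 8260 CPM. In bulk tissue, fewer cells of a type and less RNA per cell cannot be told apart. Libraries numbered up to 10 stood apart from those above 10, whatever their group: the TMM factors that scale library totals were 1.03 to 1.10 up to 10 and 0.849 (PBS 14) to 0.973 above. The labels do not call the numbers a batch. Each range holds libraries of both groups, but in unequal numbers. PBS 2, 6 and 10 and CNP 4 and 8 are numbered up to 10. PBS 14 and 18 and CNP 12, 16 and 20 are numbered above 10. The main fit has no term for this split. With library number above 10 as a covariate, 13 of the 50 tested members changed the sign of their difference between CNP and PBS. The largest shift on the log2 scale was 0.19, for Sqstm1. Results are therefore also given without PBS 14 and within each range of numbers.

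None of the 50 tested members passed the test for a difference between CNP and PBS. At an adjusted p under 0.05 (edgeR's quasi-likelihood test, adjusted over all 11499 genes tested), 0 members were called in either direction. The background was the same, with 0% of all genes called, and the smallest adjusted p of a member was 0.9999. The log2 differences, CNP minus PBS, were positive for 25 members and negative for 25. Their median was −0.0024, beside −0.0035 over all tested genes. They ran from −0.25 for Atp6v1a to 0.26 for Gla, and 17 of the 50 kept their sign under all 21 alternative fits. The sign counts varied with the fit. With library number above 10 as a covariate, 32 were positive and 18 negative. With the pigment epithelium markers as a covariate these counts were 31 and 19, and with the lens markers 24 and 26. Without PBS 18 they were 22 and 28. An unadjusted p under 0.05 was reached by 1 member with edgeR, 1 with DESeq2 and 1 with limma-voom.

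The intervals say how large a difference these libraries could still hold. For 44 members (88%) the 95% interval of the log2 difference lay within a 1.5-fold change in either direction, against 65.3% of all tested genes. For all 50 it lay within 2-fold, against 94.2% of all genes. Of 107 other tested genes of the same pathways, 72.9% had an interval within 1.5-fold and 95.3% within 2-fold. These backgrounds were not matched to the members for count level. The 6 members with a wider interval than 1.5-fold were Ctss, Gla, Grn, Atp6v1a, Sqstm1 and Ulk1. The members' median standard error (SE) was 0.11 on the log2 scale, beside 0.15 over the other pathway genes and 0.17 over all genes. Without PBS 14, 0 members were called, the median was −0.0076 and 44 intervals lay within 1.5-fold. Within the libraries numbered up to 10 the median was 0.0030, and within those above 10 it was 0.028, with 0 members called in either.

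**Figure D1:**
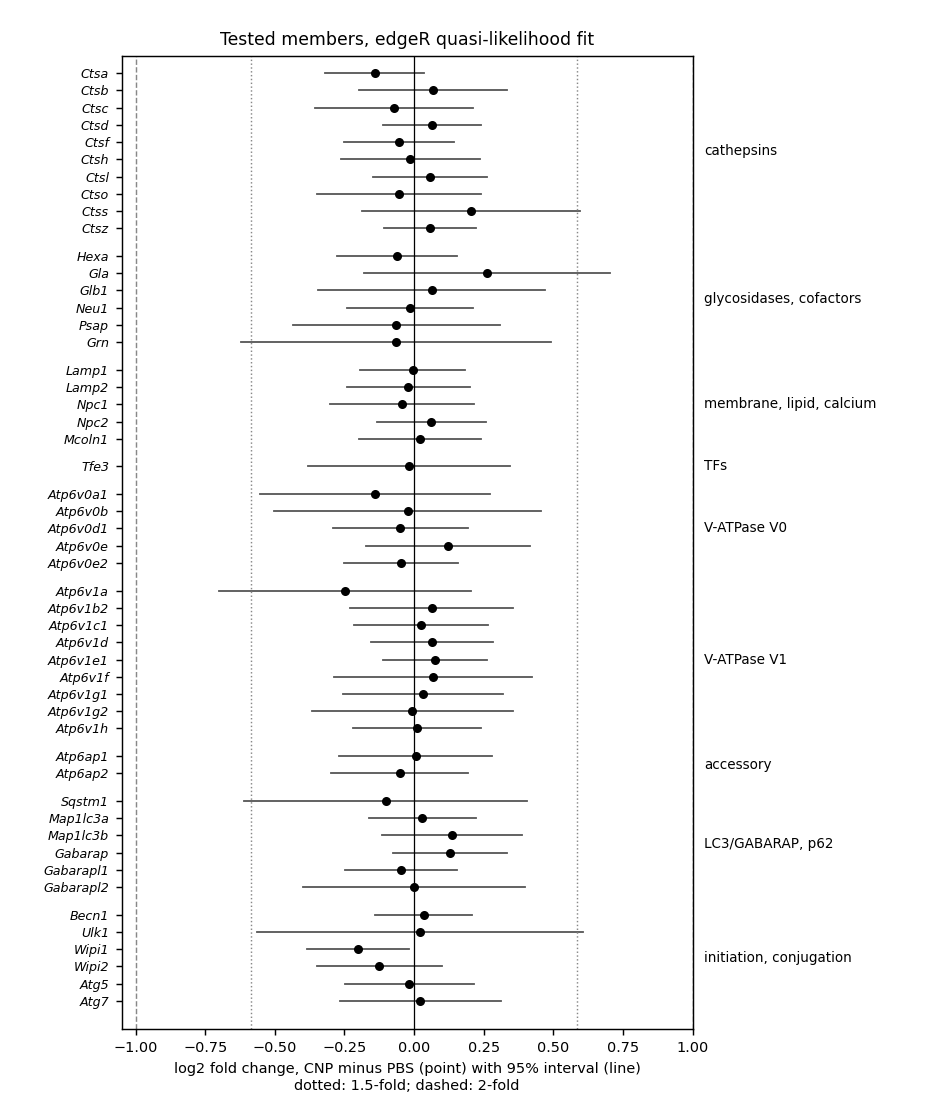
Log2 fold change of each tested member, CNP minus PBS, as a point with its 95% interval as a line, from the edgeR quasi-likelihood fit over 5 PBS and 5 CNP libraries, grouped by role; dotted lines mark 1.5-fold and dashed lines 2-fold. All 50 intervals lie inside the dashed lines, 44 lie inside the dotted lines, and Wipi1 has the only interval that does not include 0.

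Wipi1 had the smallest unadjusted p among the members. It encodes a protein that binds phosphoinositide on the forming autophagosome. Its level was 71.98, 74.6, 64.9, 63.4 and 74.1 CPM in the PBS libraries and 58.8, 63.4, 59.9, 63.8 and 57.9 CPM in the CNP libraries. The groups overlapped, since the lowest PBS value lay just under the highest CNP value. The log2 difference was −0.20 (SE 0.084, 95% interval −0.38 to −0.019) (adjusted p = 0.9999). It was the only member with an unadjusted p under 0.05, against 1.19% of all tested genes in either direction and 0.609% in the lower direction. When each library was left out in turn, the log2 fold change of Wipi1 ran from −0.23 to −0.18, and the unadjusted p stayed under 0.05 in 4 of the 10 fits. No member had groups that did not overlap, against 0.287% of all genes.

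The 10 cathepsins were all detected in every library, and their log2 differences had a median of 0.021, with 5 positive and 5 negative. Ctsb, a cysteine protease and the cathepsin with the highest CPM, was at 1655, 1920.3, 1766, 2222 and 1908 CPM in the PBS libraries and 1939.9, 1684, 2029, 2139 and 2131 CPM in the CNP libraries. PBS 14 was highest and PBS 2 lowest, so the PBS libraries spanned the whole range. The log2 difference was 0.067 (SE 0.12, 95% interval −0.20 to 0.33). Ctsa, a serine carboxypeptidase that stabilises the sialidase and the β-galactosidase of the lysosome, had the smallest unadjusted p among the cathepsins. It was at 102, 90.1, 92.7, 90.5 and 96.2 CPM in the PBS libraries and 94.4, 82.2, 80.00, 85.1 and 85.6 CPM in the CNP libraries. The CNP values were mostly lower, and CNP 4 lay among the PBS values. The log2 difference was −0.14 (SE 0.082, 95% interval −0.32 to 0.037).

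Ctsd, the main aspartic protease of the lysosome, varied little: it ran from 326 to 371 CPM and had a log2 difference of 0.065 (95% interval −0.11 to 0.24). Ctsz, a carboxypeptidase of the cysteine group, ran from 68.2 to 77.5 CPM with a log2 difference of 0.056 (−0.11 to 0.22). Both intervals lay well within 1.5-fold. Ctsf and Ctsl, endopeptidases, had log2 differences of −0.054 (−0.25 to 0.14) and 0.058 (−0.15 to 0.26). Ctsc, which activates serine proteases of immune cells, Ctsh, an aminopeptidase, and Ctso, a less studied cysteine protease, had log2 differences of −0.072, −0.014 and −0.053.

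Ctss, a cysteine protease known from antigen-presenting cells and microglia, was the most variable cathepsin. Its mean was 45.6 ± 9.07 CPM over the PBS and 52.6 ± 12.4 CPM over the CNP libraries (SD, n = 5 each), and its log2 difference was 0.20 (SE 0.18, 95% interval −0.19 to 0.60). It was 0.094 without PBS 14 and 0.10 without CNP 4, and 0.34 with the pigment epithelium markers as a covariate, where its unadjusted p was under 0.05. It was highest in CNP 4 (67.3 CPM) and CNP 16 (60.4 CPM) and lowest in PBS 14 (30.4 CPM) and CNP 20 (35.6 CPM). The summed level of 14 microglia and macrophage markers, all detected and 2 of them also counted among the other pathway genes, was also highest in CNP 16 (259.5 CPM) and CNP 4 (233 CPM) and lowest in CNP 20 (161 CPM). It ran from 175 to 216 CPM in PBS and from 161 to 259.5 CPM in CNP. Markers of other leukocytes summed to at most 0.909 CPM in a library, with Cd3e and Ms4a1 at 0 throughout. The part of the marker level in the Ctss values was not tested.

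The 6 glycosidases and cofactors had a median log2 difference of −0.038, with 2 positive and 4 negative. Psap, the precursor of the saposins that help enzymes reach membrane lipids, had the highest CPM of the set, 992, 998, 719.8, 655 and 637 CPM in the PBS libraries and 1012, 794, 678, 714 and 630.0 CPM in the CNP libraries. It was high in PBS 2, PBS 6 and CNP 4 alike, and its log2 difference was −0.064 (SE 0.17, 95% interval −0.44 to 0.31). Gla, the α-galactosidase that cleaves globotriaosylceramide, had the smallest unadjusted p of the set. It was at 9.90, 6.38, 8.47, 12.6 and 13.6 CPM in the PBS libraries and 11.1, 12.4, 14.98, 9.95 and 11.6 CPM in the CNP libraries. PBS 6 and PBS 10 were lowest, and CNP 12 was highest. The log2 difference was 0.26 (SE 0.20, 95% interval −0.18 to 0.70). Within the libraries numbered up to 10 it was 0.51, and within those above 10 it was −0.12, so its sign depended on the libraries used.

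Hexa, the α subunit of β-hexosaminidase, and Neu1, the sialidase, had log2 differences of −0.062 (−0.28 to 0.15) and −0.015 (−0.24 to 0.21). Glb1, the β-galactosidase, ran from 5.83 to 10.7 CPM, with a log2 difference of 0.063 (−0.34 to 0.47). Grn encodes progranulin, a secreted and lysosomal glycoprotein. It had the largest SD of log2 CPM of the 50 tested members, running from 10.5 to 31.4 CPM, and its log2 difference of −0.065 had a wide interval (−0.62 to 0.49). It was positive in 6 of the 21 alternative fits, among them 0.11 without PBS 2, 0.27 with the pigment epithelium markers as a covariate and 0.28 within the libraries numbered above 10.

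Among the 5 membrane, lipid and calcium genes the log2 differences ran from −0.044 to 0.062. Lamp1, a heavily glycosylated protein that lines the lysosome, had the highest CPM of the set, 426, 419, 399.9, 443 and 416 CPM in the PBS libraries and 451, 384, 437, 405 and 418 CPM in the CNP libraries. The groups covered nearly the same range, and the log2 difference was −0.0056 (SE 0.086, 95% interval −0.19 to 0.18). Npc2, the soluble carrier that hands cholesterol to Npc1, was at 156, 157, 168, 182 and 170.0 CPM in the PBS libraries and 185, 158, 193, 171 and 163 CPM in the CNP libraries. PBS and CNP libraries were mixed along the range, and the log2 difference was 0.062 (SE 0.090, 95% interval −0.13 to 0.26). Lamp2, needed for fusion of autophagosomes with lysosomes, Npc1, the membrane cholesterol exporter, and Mcoln1, a calcium channel, had log2 differences of −0.021, −0.044 and 0.021.

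The transcription factors had means of 2.88 CPM per kilobase of exon for Tfe3 and 0.251 for Tfeb. Other members had levels near that of Tfe3, such as Npc1 (2.86), Glb1 (2.68) and Atg7 (3.15). Levels per kilobase depend on which part of transcripts was read, which the sources used here do not state. In CPM, Tfe3 was at 29.9, 28.9, 34.8, 17.1 and 22.99 CPM in the PBS libraries and 27.8, 31.00, 26.1, 22.99 and 24.99 CPM in the CNP libraries. PBS 14 was lowest and PBS 10 highest, and the log2 difference was −0.019 (SE 0.17, 95% interval −0.38 to 0.34). Tfeb did not pass the filter on low counts: its 2 to 13 counts per library summed to 37 in PBS and 27 in CNP. With no filter on low counts, edgeR's quasi-likelihood test gave Tfeb a log2 difference of −0.37 (95% interval −1.28 to 0.54, adjusted p = 0.998). That interval reached past 2-fold, so a difference of such a size in the lower direction was not excluded at this depth.

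**Figure D2:**
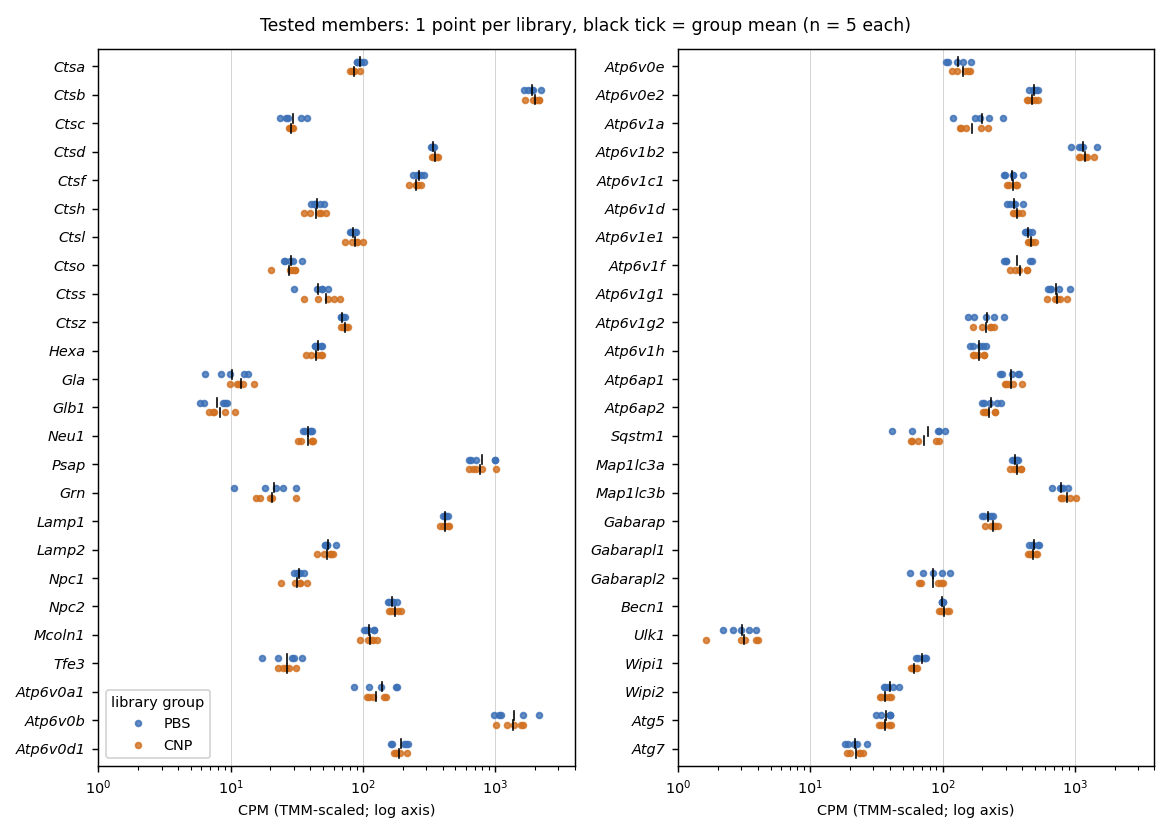
Abundance of the 50 tested members in CPM on a log axis, with 1 point per library (PBS in blue, CNP in orange, 5 each) and a black tick at each group mean. Members span from Ulk1 at 1.64 CPM to Ctsb at 2222 CPM, and the PBS and CNP points overlap for every member.

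The V-ATPase had 17 members on the list and 16 tested, 9 with a positive and 7 with a negative log2 difference and a median of 0.0078. In the V0 sector, Atp6v0b, a proteolipid of the ring, had the highest CPM, 974, 1074, 1103, 2150.1 and 1625 CPM in the PBS libraries and 1225, 1007, 1623, 1576 and 1385 CPM in the CNP libraries. PBS 14 and PBS 18 were the highest and PBS 2 the lowest, and the log2 difference was −0.023 (SE 0.22, 95% interval −0.50 to 0.46). Without PBS 14 it was 0.19, and within the libraries numbered above 10 it was −0.31, so it had no stable sign. Atp6v0e, a small membrane subunit, was at 107, 109.6, 129.7, 165 and 142 CPM in the PBS libraries and 128, 118, 162, 155 and 148 CPM in the CNP libraries. The values were higher in the libraries numbered above 10 in both groups, and the log2 difference was 0.12 (SE 0.14, 95% interval −0.17 to 0.42).

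Atp6v0a1, an a subunit that forms the proton half-channels, ran from 85.4 to 183 CPM with a log2 difference of −0.14 (−0.55 to 0.27). Atp6v0d1, which joins the ring to the central stalk, and Atp6v0e2, a second e subunit, had log2 differences of −0.050 (−0.29 to 0.19) and −0.047 (−0.25 to 0.16). Atp6v0c encodes the main proteolipid of the ring, and it had 33 counts in all PBS and 34 in all CNP libraries and was not tested. Its pseudogenes Atp6v0c-ps1 and Atp6v0c-ps2 held 0 counts. Whether its reads were lost in counting was not tested, so its level is uncertain.

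In the V1 sector, 7 of 9 members had a positive log2 difference, each with an interval that included 0, and the median was 0.033. Atp6v1b2, a B subunit of the ATP-splitting head, had the highest CPM, 1077, 1469.9, 1123, 1149 and 930.3 CPM in the PBS libraries and 1079, 1239, 1185, 1408 and 1094 CPM in the CNP libraries. The extremes were both PBS libraries, and the log2 difference was 0.063 (SE 0.14, 95% interval −0.23 to 0.36). Atp6v1a, the catalytic A subunit, had the smallest unadjusted p of the sector, at 285, 224, 175, 119.9 and 191 CPM in the PBS libraries and 219.7, 195, 136, 137 and 150.4 CPM in the CNP libraries. PBS 2 was highest and PBS 14 lowest, and the log2 difference was −0.25 (SE 0.21, 95% interval −0.70 to 0.21). It was −0.38 without PBS 14, where its unadjusted p was under 0.05, and −0.085 without PBS 2. It was −0.14 and −0.15 within the libraries numbered up to 10 and above 10, and −0.0072 with the pigment epithelium marker level as a covariate.

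The log2 differences of the stalk and regulatory subunits of V1 ran from −0.0064 to 0.076. Atp6v1c1 and Atp6v1h, which regulate assembly, had log2 differences of 0.025 and 0.010. Atp6v1d and Atp6v1f of the central stalk had 0.063 and 0.069. Atp6v1e1 and the alternative G subunits Atp6v1g1 and Atp6v1g2 of the outer stalks had 0.076, 0.033 and −0.0064. Atp6v1e1 had the narrowest interval of the tested subunits, −0.11 to 0.26.

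The accessory proteins assist assembly of the pump. Atp6ap1 was at 375, 379, 335, 269.6 and 284 CPM in the PBS libraries and 395, 344, 298, 301 and 311 CPM in the CNP libraries. Its log2 difference was 0.0053 (SE 0.13, 95% interval −0.27 to 0.28). Atp6ap2, also known as the prorenin receptor, was at 256, 276, 227, 199 and 207 CPM in the PBS libraries and 250.3, 247, 210.0, 214 and 202 CPM in the CNP libraries. Its log2 difference was −0.052 (SE 0.11, 95% interval −0.30 to 0.20). Both were higher in every library numbered up to 10 than in any above 10, in PBS and CNP alike.

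Divided by annotated exonic length (GENCODE M21), the pump's subunits differed widely in level per kilobase. Over the 10 libraries Atp6v0b had a mean of 670.0 CPM per kilobase, Atp6v1g1 643 and Atp6v1f 354. Atp6v1a had 30.3, Atp6v0a1 20.2 and Atp6v1h 19.3. Among alternative subunits, Atp6v1g1 stood above Atp6v1g2 (85.5), and Atp6v0e2 (204) above Atp6v0e (36.7). Of the other members, Ctsb had 321, Map1lc3a 304, Psap 285 and Gabarapl1 242 CPM per kilobase, while Npc1 had 2.86 and Ulk1 0.476. If reads were counted mainly at 1 end of transcripts, division by length would favour short genes. The protocol reverse transcribed polyadenylated RNA with barcoded primers, and the sources used here do not state which part of transcripts was read. The order of genes per kilobase is therefore uncertain. Map1lc3b had a mean of 829 CPM and Map1lc3a 359 CPM, while per kilobase they had 110 and 304.

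The LC3 and GABARAP proteins coat the autophagosome membrane, and 4 of the 6 members of this set had a positive log2 difference, with a median of 0.015. Map1lc3b had the highest CPM of the set, 675, 821, 774, 889.7 and 788 CPM in the PBS libraries and 791, 780.3, 923, 1029 and 816 CPM in the CNP libraries. CNP 16 was highest and PBS 2 lowest, and the log2 difference was 0.14 (SE 0.12, 95% interval −0.12 to 0.39). Gabarap had the smallest unadjusted p of the set, at 198, 206, 224, 231 and 239 CPM in the PBS libraries and 243, 211, 265, 248 and 234 CPM in the CNP libraries. The values overlapped between 211 and 239 CPM, and the log2 difference was 0.13 (SE 0.094, 95% interval −0.076 to 0.33). Both differences were positive under all 21 alternative fits, and none of these called either gene.

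Map1lc3a and Gabarapl1 had log2 differences of 0.030 (−0.16 to 0.22) and −0.047 (−0.25 to 0.16), and that of Gabarapl2 was 0.00 (−0.40 to 0.40). Sqstm1 encodes p62, the receptor that links ubiquitinated cargo to LC3. It ran from 41.2 to 105 CPM, with means of 77.8 ± 26.8 CPM over the PBS and 72.8 ± 17.1 CPM over the CNP libraries (SD, n = 5 each). Its log2 difference was −0.10 (SE 0.23, 95% interval −0.61 to 0.41). It turned positive without PBS 2 (0.024), with library number as a covariate (0.086), with the pigment epithelium markers as a covariate (0.22) and within the libraries numbered above 10 (0.28).

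Of the 6 tested initiation and conjugation genes, 3 had a positive and 3 a negative log2 difference. Becn1, part of the lipid kinase complex that starts the membrane, had the highest CPM of the set, 98.3, 99.1, 101, 98.9 and 100.1 CPM in the PBS libraries and 112, 94.4, 107, 99.1 and 96.7 CPM in the CNP libraries. The PBS libraries lay within a few CPM of each other and inside the CNP range, and the log2 difference was 0.034 (SE 0.080, 95% interval −0.14 to 0.21). Wipi2, a relative of Wipi1 that recruits the conjugation machinery, had a log2 difference of −0.13 (−0.35 to 0.099). Atg5 and Atg7 of the conjugation system had −0.017 (−0.25 to 0.21) and 0.022 (−0.27 to 0.31). Ulk1, the initiating kinase, ran from 1.64 to 4.03 CPM, and its log2 difference of 0.020 had the widest interval of the tested members (−0.57 to 0.61). Atg9a, a lipid scramblase, had 2 counts in PBS and 0 in CNP and was not tested. Its annotated exons overlap Gm29253 on the same strand and Ankzf1 on the other.

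Other genes of the same pathways, from 4 lists of 126 genes, were read from the same fit: 107 were tested, 0 were called, and 54 had a positive and 53 a negative log2 difference. The other hydrolases (29 tested) had a median of −0.0092 and the other membrane and sorting genes (32 tested) a median of 0.012. The other V-ATPase genes (9 tested) had 0.044 and the other autophagy genes (37 tested) −0.0095. The genes with the highest CPM of each list come first. Cst3, an inhibitor of cysteine cathepsins, had a log2 difference of 0.038 (−0.44 to 0.52), and Lgmn, an asparaginyl protease, 0.027 (−0.18 to 0.24). Laptm4b and Cd63, lysosomal membrane proteins, had −0.090 (−0.34 to 0.16) and 0.061 (−0.16 to 0.28). Ccdc115 and Vma21, assembly factors of the pump, had 0.019 (−0.32 to 0.36) and −0.026 (−0.27 to 0.22). Tax1bp1, a cargo receptor, had 0.0089 (−0.21 to 0.23) and Rab7, a GTPase of late endosomes, −0.019 (−0.28 to 0.25).

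The smallest unadjusted p of each list belonged to Ids, Atg2b, Dmxl1 and Clcn7. Ids, a sulfatase, was at 5.17 ± 1.14 CPM over the PBS and 7.41 ± 0.874 CPM over the CNP libraries (SD, n = 5 each), with a log2 difference of 0.52 (0.12 to 0.91). Atg2b, a lipid transfer protein, was at 2.05 ± 0.688 CPM over the PBS and 3.30 ± 0.632 CPM over the CNP libraries, with 0.64 (0.094 to 1.19). Their intervals excluded 0, and neither gene passed after adjustment (adjusted p = 0.9999 for each). Dmxl1, a regulator of V-ATPase assembly, had 0.47 (−0.076 to 1.02), and Clcn7, the lysosomal chloride exchanger, −0.24 (−0.48 to 0.0038).

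The members varied over libraries within each group. The SD of log2 CPM over libraries of a group had a median of 0.17 among members. It was 0.22 over the other pathway genes and 0.27 over all tested genes, neither matched for count level. With the group means removed, the first principal component held 46.0% of the members' variance, beside 41.0% for all tested genes. For members as for all genes it placed PBS 2, PBS 6, CNP 8 and CNP 4 at one end and PBS 14 and PBS 18 at the other. PBS 10 lay nearest the middle, at −1.04 for members and −11.2 for all genes. PBS 14 was the lowest of the 10 libraries for 14 members and the highest for 7.

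**Figure D3:**
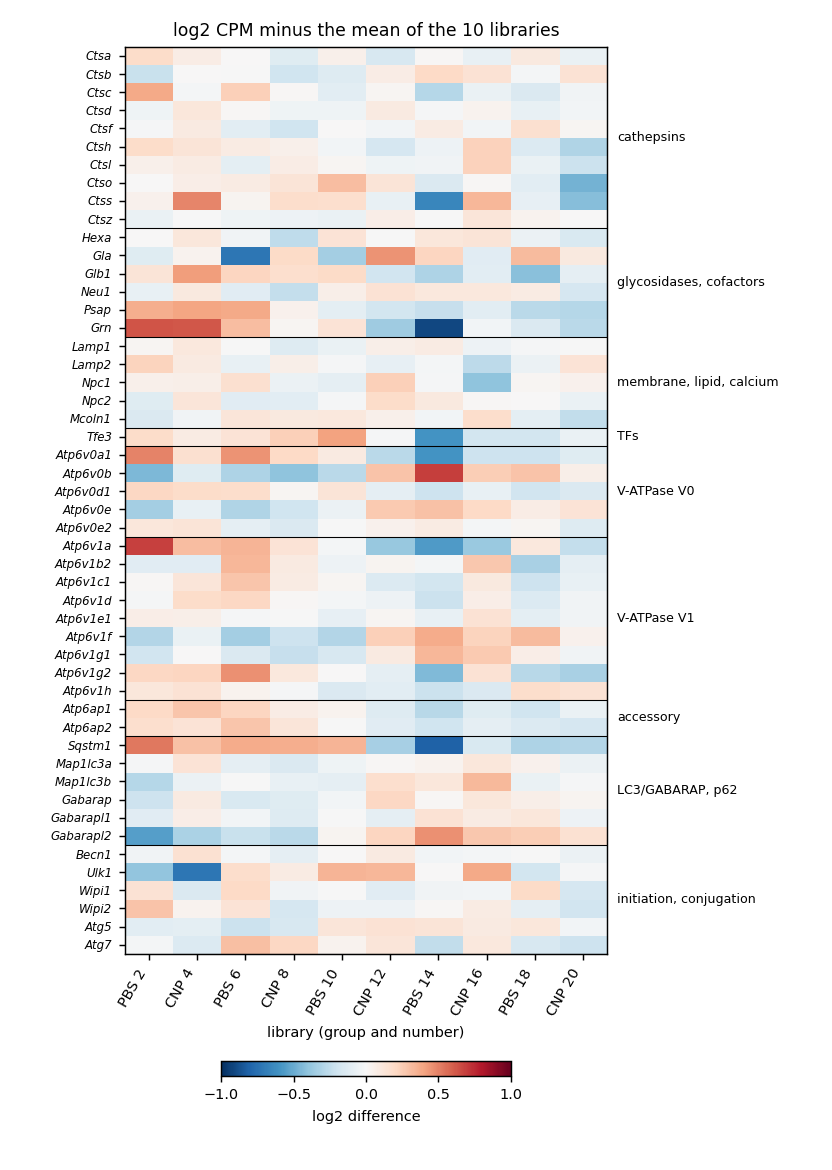
Log2 CPM of each tested member minus its mean over the 10 libraries, with libraries in order of number along the horizontal axis, members down the vertical axis by role, and red for above and blue for below the mean. In CPM, 4 members were higher and 9 lower in every library from CNP 12 on than in any up to PBS 10. The other members overlapped, and PBS 14 holds the lowest value for 14 members.

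Between library numbers above 10 and up to 10, the CPM values of 13 of the 50 tested members did not overlap, beside 20.6% of all tested genes. Of these, 4 were higher above 10 (9.82% of all genes): Atp6v0b, Atp6v0e, Atp6v1f and Gabarapl2. The other 9 were lower above 10 (10.8% of all genes): Glb1, Psap, Grn, Tfe3, Atp6v0a1, Atp6v0d1, Atp6ap1, Atp6ap2 and Sqstm1. These genes were named after their values were seen, and the split by number is a description with no test.

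The largest such difference among members was that of Sqstm1. Its log2 level above 10 minus that up to 10 averaged −0.76, with 88.9 to 105 CPM up to 10 and 41.2 to 64.9 CPM above. For Grn the difference was −0.69, with 20.4 to 31.4 CPM up to 10 and 10.5 to 19.7 CPM above. For Atp6v0b it was 0.62, with 974 to 1225 CPM up to 10 and 1385 to 2150 CPM above.

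Without overlap were 4 of the 50 tested members in the higher direction, beside 9.82% of all genes, and 9 in the lower, beside 10.8%. Whether these shares differ was not tested. Of the 5 tested V0 subunits, Atp6v0b and Atp6v0e were high where Atp6v0a1 and Atp6v0d1 were low, and Atp6v0e2 differed by −0.0033 on the log2 scale between the ranges of numbers. Over the 10 libraries, with group means removed, the Pearson correlation of log2 CPM was 0.95 between Atp6v0b and Atp6v0e and −0.98 between Atp6v0a1 and Atp6v0e. It was 0.96 between Atp6v0d1 and Atp6ap1 and −0.97 between Atp6v0b and Sqstm1. Among the 10 pairs of V0 subunits the median absolute correlation was 0.84, beside 0.43 over all 1225 pairs of members and 0.38 over pairs of all tested genes. The correlations of Atp6v0e2 with the other V0 subunits ran from −0.16 to 0.26. The same median was 0.63 for the LC3 and GABARAP set, 0.51 for V1, 0.38 for the membrane genes, 0.35 for the glycosidases, and 0.31 each for the cathepsins and the initiation genes. Means of the ranges of library number were not removed, so the correlations also hold the difference between those ranges. Atp6v0a1, Atp6v0b, Atp6v0d1 and Atp6v0e were among the members without overlap between them. The V0 pairs were singled out after their values were seen. These correlations are descriptions, since their points share libraries, depth and composition, and no test was made of them.

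Marker levels differed over the same split. The summed rod markers were at 43693 to 51265 CPM up to 10 and 57495 to 76706 CPM above, and the amacrine markers at 1052 to 1618 CPM and 571 to 919 CPM. The pigment epithelium markers were at 479.9 to 1277 CPM up to 10 and 1459 to 2504 CPM above. Mitochondrially encoded genes held 1.96% to 2.39% of counts up to 10 and 3.21% to 4.45% above. The part of these levels in the members' values was not tested. Between the groups, the ranges of each of these marker sums overlapped.

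**Figure D4:**
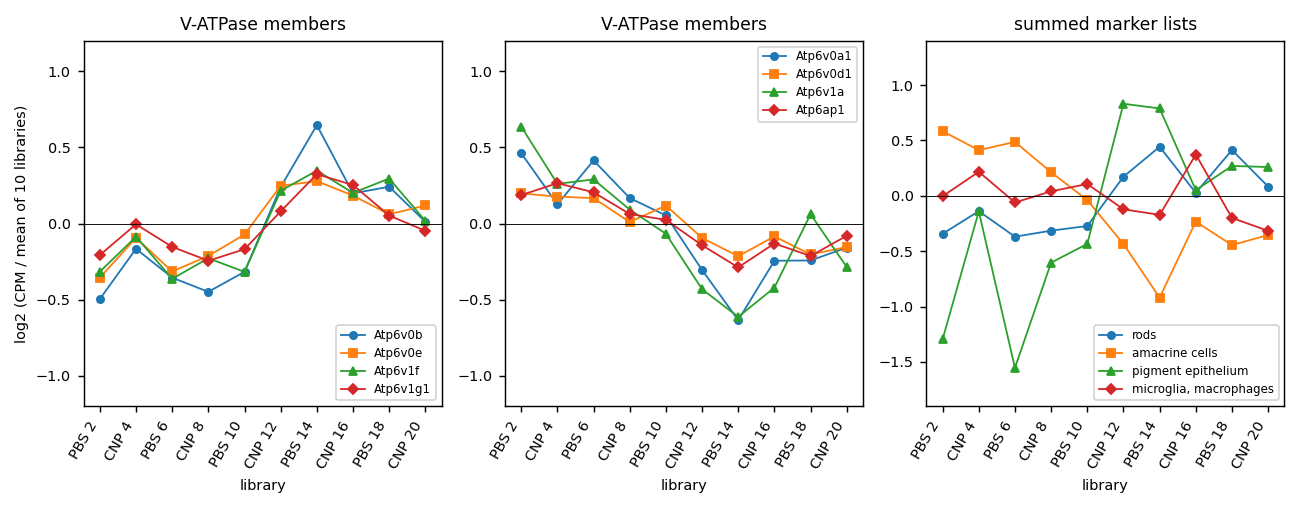
Log2 ratio of each library's CPM to the mean of the 10 libraries, by library in order of number, for V-ATPase members with a higher mean above 10 (left panel), V-ATPase members with a lower mean (middle panel) and summed marker lists (right panel, on its own vertical range). Atp6v0b runs from 974 CPM in PBS 2 to 2150 CPM in PBS 14 and Atp6v1a from 285 to 120 CPM between the same libraries, while the rod markers run from 44501 to 76706 CPM.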

How the data were processed

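Polyadenylated RNA was reverse transcribed with barcoded primers carrying molecular identifiers and made into libraries, per the labels' protocols. STAR, STARsolo and build GRCm39 are named in the submitters' processing notes; no source used here gives the annotation, the use of strand or whether identifiers were collapsed. The authors deposited 1 table of raw counts per Ensembl gene for 10 libraries, with 57186 IDs, of which 51880 matched a symbol. The members, gene lists and tests were chosen with earlier results of these data known.

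Genes were filtered with filterByExpr (minimum count 10, minimum total 15), which left 11499. They were scaled by TMM on library totals over all genes and tested two-sided with the quasi-likelihood method of edgeR 4.0.16 (R 4.3.3), without covariates and with Benjamini-Hochberg adjustment over all tested genes. A gene was called at an adjusted p under 0.05. The biological coefficient of variation was 19.1%. SEs and 95% intervals were computed from the F statistic of that test. Correlations and deviations used log2 CPM with a prior count of 2. The scripts were tested on simulated counts.

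Every member may be named. Values in every library are printed for the member with the highest CPM in each role and the one with the smallest unadjusted p. Of each list of other pathway genes, the 2 with the highest CPM and the 1 with the smallest unadjusted p are named, since none passed.

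The 20 pairs of libraries within groups differed by a chi-square per degree of freedom of 3.99 to 32.6, so none agreed within counting noise. Of the members, 4 overlap exons of another gene on the same strand and 17 on the other strand in GENCODE M21 (GRCm38), and their counts could hold reads of those genes. Where lengths or promoters were used, their build differs from that of the counts, so only lengths, names and the promoter table's own coordinates were taken. Alternatives were DESeq2 1.42.0, limma-voom (limma 3.58.1), other scalings, no low-count filter, covariates and leaving out each library. Fits within each range of library numbers were added after seeing the data.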

Additional observations from a re-analysis of the deposited data

Results flagged for a closer look

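In 130 comparisons of 5 libraries (100 for tested members and 30 for the sums of the 15 marker lists), 5 had 1 library far from the others by Dixon's gap rule, which chance meets in about 1 in 20. Ctso was at 20.04 CPM in CNP 20, while the other CNP libraries were at 28.2 to 30.6 CPM. Lamp2 was at 62.9 CPM in PBS 2, while the other PBS libraries were at 51.3 to 53.4 CPM. The summed lens markers were at 3889.8 CPM in CNP 8 and at 273 to 1090 CPM in the other CNP libraries. PBS 10 held 8259.9 CPM of lens markers, the most of any library. The summed pericyte and smooth muscle markers were at 41.9 CPM in PBS 6 and at 54.0 to 55.7 CPM in the other PBS libraries. The summed skeletal muscle markers were at 159 CPM in CNP 12 and at 32.6 to 51.7 CPM in the other CNP libraries. With the lens markers as a covariate, 0 members were called.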

How the results depend on the processing

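Under all 21 alternatives, 0 members, 0 other pathway genes and 0 of all tested genes were called. Without a call, unadjusted p under 0.05 was met by 137 of 11499 genes with edgeR and 142 with limma-voom, and, over 22756 genes, by 146 with DESeq2 and 422 with edgeR and no low-count filter. That count was 273 with library number above 10 as a covariate, 783 with the pigment epithelium markers as a covariate, 301 without PBS 14, and 213 and 428 within libraries numbered up to 10 and above 10. It was met by 0 to 2 members in each alternative. The median log2 fold change of members ran from −0.024 to 0.029 when each library was left out in turn, and was 0.038 with the pigment epithelium markers as a covariate. Between 40 and 48 members had an interval within 1.5-fold in the fits that give one; within 2-fold it was 50, except 48 and 49 in the numbered ranges. Of the 50 members, 17 kept 1 sign under all 21 alternatives, and the cause of the other sign changes was not tested. No paired analysis was possible because the groups share no library numbers. Low counts limit Tfeb, Atp6v0c and Atg9a, which DESeq2 and edgeR without the filter tested and did not call. If molecular identifiers were not collapsed, counting error is understated.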

Other observations

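Members that were higher and lower in the libraries numbered above 10 differed in their median exonic length. The 20 tested members with a higher mean log2 level above 10 had a median annotated length of 2352 bases, and the 30 with a lower one had a median of 4919 bases. Atp6v1f (1063 bases), Atp6v1g1 (1135 bases) and Atp6v0b (2051 bases) were among the first, and Atp6v0a1 (6556 bases), Atp6v1a (6044 bases) and Tfe3 (9261 bases) among the second. Atp6v0d1 (1793 bases) and Ctss (1358 bases) were short and lower above 10, and Map1lc3b (7517 bases) was long and higher. Over the 50 tested members, Spearman's rho between length and the log2 difference above minus up to 10 was −0.24, a weak relation. It was noticed in these data and no test of it was made.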
